A study of Homo sapiens with 8 samples.

Results

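The ERBB receptors EGFR, ERBB2 and ERBB3 and 6 of their ligands, AREG, EREG, HBEGF, TGFA, BTC and NRG1, were examined in epithelial ovarian cancer (EOC) cells with and without silencing of SFPQ, a nuclear RNA-binding protein that takes part in splicing and transcription. The 9 genes were chosen by name, as members of one receptor system, with earlier results of these data known. They were found on the arrays through the RefSeq accession listed for each probe. They were 9 of 20503 genes with a named probe and were measured by 16 probes. RNA came from 2 established EOC lines, MDAH-2774 (hereafter MDAH) and SKOV3. Each line gave 2 control arrays and 2 arrays of cells silenced for SFPQ, 1 with sh-SFPQ#2 and 1 with sh-SFPQ#3, so that 8 single-colour Agilent arrays formed 4 groups of 2. The labels mark both controls of a line as carrying the control shRNA, whereas a parental sample and an sh-ctrl sample are named in the methods, and the controls are treated here only as cells that were not silenced. No drug treatment is named for any of these samples, and nothing in the labels says that arrays of a group came from separate cultures, so that p-values measure the spread between these arrays, which in silenced cells includes the difference between the shRNAs.

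As background, the ERBB receptors are tyrosine kinases of the cell surface that signal as pairs. EGFR binds amphiregulin, TGF-alpha and other EGF-like ligands, which are made as membrane-bound precursors and released by proteases, whereas ERBB2 has no known ligand and serves as partner of the others, and ERBB3 binds neuregulins but has little kinase activity of its own. Active receptors feed the RAS-MAPK and the PI3K-AKT pathways, and feedback inhibitors that are themselves induced by these pathways damp the signal. SKOV3 is known as a line with amplified ERBB2.

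All levels are log2 signals after subtraction of the array's 75th percentile, so that a probe at that percentile has a value of 0, and a difference of 1 is 2-fold. Levels of different probes cannot be compared with each other. The 75th percentile itself lay between 243.9 and 496.2 intensity units, lowest in MDAH sh-SFPQ#3 cells, and 47.7% to 57.0% of the probes of an array were well above background. Each line filled a row of the slide, with controls first, so that position and group cannot be told apart. SFPQ was measured first as a check of the labels. Its level was 2.83-fold lower in silenced MDAH cells (adjusted p = 0.0328) and 4.02-fold lower in silenced SKOV3 cells (adjusted p = 0.0299), with a standard error of 0.23 on the log2 scale in each, and both silenced arrays lay below both controls in each line. Of 9 epithelial markers, 8 or 9 were well above background on each array. Of 6 ovarian and Mullerian markers 4 were so on the MDAH arrays and 2 to 4 on the SKOV3 arrays. PAX8 and SOX17 were well above background on every array, and WT1 on the MDAH arrays only. EMX2 was so on the MDAH arrays and with sh-SFPQ#2 in SKOV3 cells, MUC16 on the silenced SKOV3 arrays only, and MSLN on no array. Of 6 fibroblast markers 1 was well above background on the MDAH arrays and 2 on the SKOV3 arrays. Of 5 leukocyte markers 3 were so on the MDAH arrays and 4 on the SKOV3 arrays, and of 4 mesenchymal markers 4 and 3. Of 5 endothelial markers 1 to 3 were well above background on an array. Being well above background thus did not tell cell types apart here.

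**Figure D1:**
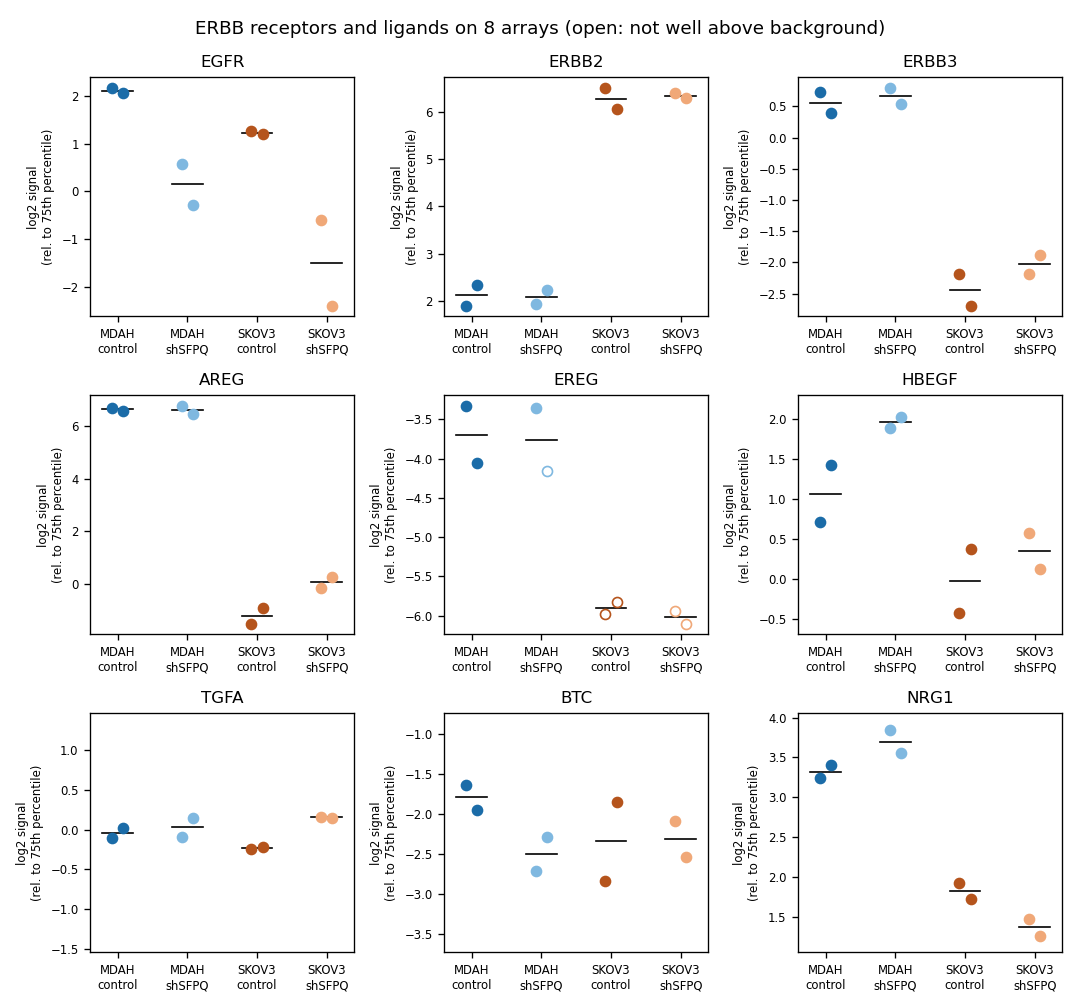
Level of each of the 9 genes on the 8 arrays (1 panel per gene, brightest probe, log2 signal less the array's 75th percentile; dots are arrays, lines are means of 2, open dots were not well above background). EGFR was lower on both silenced arrays of each line. AREG, EREG, ERBB3, HBEGF and NRG1 were higher, and ERBB2 lower, on all 4 MDAH than on all 4 SKOV3 arrays, with EREG not well above background on the SKOV3 arrays.

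EGFR was the member that changed most on silencing. The brightest probe, for the full-length transcript NM_005228, read 2.17 and 2.06 in MDAH controls, then 0.58 for sh-SFPQ#2 and -0.28 for sh-SFPQ#3. In SKOV3 cells it read 1.26 and 1.21 in controls, then -0.60 for sh-SFPQ#2 and -2.40 for sh-SFPQ#3. The silenced arrays were below both controls in each line, and sh-SFPQ#3 was below sh-SFPQ#2 in each line. Against the mean of the controls, EGFR was 2.89-fold lower with sh-SFPQ#2 and 5.27-fold lower with sh-SFPQ#3 in MDAH cells, and 3.57-fold and 12.4-fold lower in SKOV3 cells. SFPQ itself was lower with sh-SFPQ#3 than with sh-SFPQ#2 in both lines, by 3.20-fold against 2.51-fold in MDAH cells and by 4.83-fold against 3.35-fold in SKOV3 cells.

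Averaged over both lines, EGFR was 5.10-fold lower after silencing, a log2 change of -2.35 with a standard error of 0.40 (adjusted p = 0.0281), and 3.64% of all 15552 genes tested passed as lower. Within a line the change did not pass the threshold: it was -1.97 in MDAH cells (95% interval -3.31 to -0.62, adjusted p = 0.119) and -2.73 in SKOV3 cells (95% interval -4.08 to -1.39, adjusted p = 0.0839). Both within-line changes passed in limma with another background correction (normexp) of median pixel signals, followed by quantile normalization. They were -1.90 in MDAH cells (adjusted p = 0.0372) and -2.14 in SKOV3 cells (adjusted p = 0.037). Of the 15552 genes, 622 passed there in MDAH cells in place of 316, and 322 in SKOV3 cells in place of 155. They also passed in MDAH cells without either silenced SKOV3 array (adjusted p = 0.0408 in each case) and in SKOV3 cells without its sh-SFPQ#2 array (adjusted p = 0.0139). The change in MDAH cells minus that in SKOV3 cells was 0.77 (95% interval -1.13 to 2.67, adjusted p = 0.658). The call on the average was lost without some single arrays: leaving out 1 array kept the change between -2.80 and -1.90, but the adjusted p rose to 0.134 without MDAH control 1, 0.113 without MDAH control 2, 0.0668 without MDAH sh-SFPQ#3, 0.0835 without SKOV3 control 1 and 0.0733 without SKOV3 control 2. It also rose to 0.0521 when dim genes were kept in the test.

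The shorter EGFR transcripts were measured by a probe each. These variants end early and encode truncated receptors without the kinase domain. The probe for NM_201283 read -0.64 and -0.55 in MDAH controls and -2.56 and -4.54 in silenced MDAH cells, and -1.46 and -1.17 in SKOV3 controls and -2.57 and -4.80 in silenced SKOV3 cells, and on both sh-SFPQ#3 arrays it was not well above background. The probe for NM_201282 read -1.79 and -2.65 in MDAH controls and -2.97 and -2.76 in SKOV3 controls, and it was not well above background on any silenced array. Every EGFR probe was thus lower on both silenced arrays of each line than on the controls of that line.

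When probes were tested instead of genes, 6.45% of all 29021 probes tested passed on the average of both lines. All 3 EGFR probes did, with changes of -2.35 (adjusted p = 0.0239), -2.67 (adjusted p = 0.0474) and -2.01 (adjusted p = 0.00892) for NM_005228, NM_201283 and NM_201282. The probes for NM_201283 and NM_201282 entered the test only through the control groups. Their p-values rest in part or wholly on silenced readings that were not well above background, so they are no separate support for a fall. In MDAH cells alone, where 2.69% of probes passed, the NM_201282 probe passed with this limit (adjusted p = 0.0235). Its fall there was at least 3.50-fold, since the silenced arrays gave only a bound. In SKOV3 cells, where 1.30% of probes passed, it was at least 2.40-fold lower and did not pass (adjusted p = 0.0618). These bounds set the mean of the controls against the lowest signal called well above background on each silenced array, or against the probe's own signal where that was higher.

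**Figure D2:**
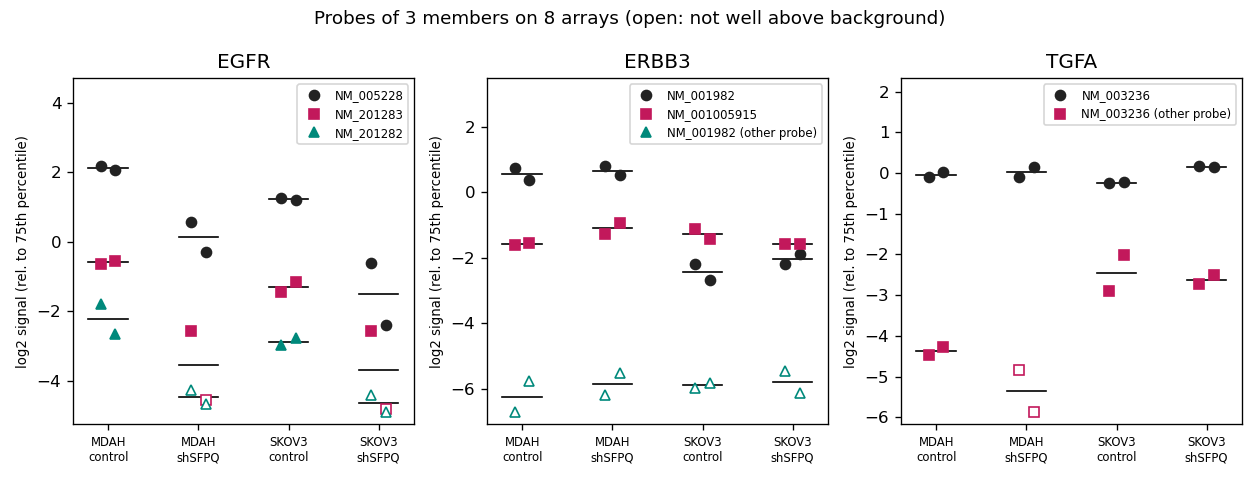
Every probe of EGFR, ERBB3 and TGFA on the 8 arrays (log2 signal less the array's 75th percentile; 1 symbol per probe, named by its RefSeq accession; lines are means of 2 arrays, open symbols were not well above background). The 3 EGFR probes were all lower on the silenced arrays, and the 2 ERBB3 probes that gave a signal and the 2 TGFA probes differed in how they separated the lines.

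The region just upstream of the first listed EGFR start is shown because EGFR was the member that passed on silencing. It comes from RefSeq (build GRCh38.p14, plus strand) and runs 5′ to 3′ over the 250 bases before the start, with capitals for matches to GGGCGG, the core of the site of SP1-type factors, or its reverse complement CCGCCC.
EGFR, chr7:55018767-55019016: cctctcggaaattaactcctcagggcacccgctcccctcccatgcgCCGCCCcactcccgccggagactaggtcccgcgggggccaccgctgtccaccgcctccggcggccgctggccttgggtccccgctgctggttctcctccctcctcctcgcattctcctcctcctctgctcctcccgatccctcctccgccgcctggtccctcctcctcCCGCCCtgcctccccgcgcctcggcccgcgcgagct
The window held 2 matches on the reverse strand, beginning 204 and 36 bases before the start, and none to TATAAA or to the cAMP response element TGACGTCA. Of 35116 promoter windows of the same length, searched on both strands, 42.6% held GGGCGG, 1.65% TGACGTCA and 3763 windows TATAAA. EGFR lies on chromosome 7 between the coding genes SEC61G and LANCL2.

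The other receptors gave no call on silencing and differed widely between the lines. ERBB2 read 1.90 and 2.33 in MDAH controls, 1.94 and 2.23 in silenced MDAH cells, 6.49 and 6.05 in SKOV3 controls, and 6.39 and 6.28 in silenced SKOV3 cells. Control and silenced arrays overlapped in each line, while every SKOV3 array was far above every MDAH array. ERBB2 was 17.8-fold lower in MDAH than in SKOV3 controls (log2 difference -4.15, standard error 0.23, adjusted p = 1.93e-05). On silencing its change was -0.03 in MDAH cells (95% interval -0.58 to 0.52) and 0.06 in SKOV3 cells (95% interval -0.49 to 0.61), with adjusted p = 0.953 and 0.899. This probe was printed 10 times on each array, and the SD between these spots was 0.03 to 0.05, whereas the 2 controls of a line were 0.43 and 0.45 apart in MDAH and SKOV3 cells.

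ERBB3, the neuregulin receptor, ran the opposite way between the lines. Its brightest probe, for NM_001982, read 0.73 and 0.39 in MDAH controls and 0.79 and 0.53 in silenced MDAH cells, against -2.19 and -2.69 in SKOV3 controls and -2.19 and -1.88 in silenced SKOV3 cells. It was 7.99-fold higher in MDAH than in SKOV3 controls (95% interval of the log2 difference 2.43 to 3.57, adjusted p = 8.99e-05), and with the mean of all ERBB3 probes the log2 difference was 0.77 and still passed. On silencing the change was 0.10 in MDAH cells (adjusted p = 0.820) and 0.41 in SKOV3 cells (adjusted p = 0.386). The probe for NM_001005915, a short variant that encodes a secreted form of the receptor, did not show the line difference: its level was between -1.62 and -0.92 on the MDAH arrays and between -1.57 and -1.11 on the SKOV3 arrays, and the controls differed by -0.33 (standard error 0.19, adjusted p = 0.196 over probes, of which 51.8% passed between the lines). A further NM_001982 probe was not well above background on any of the 8 arrays.

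Amphiregulin (AREG), a ligand of EGFR, separated the lines more than any other member. It read 6.70 and 6.58 in MDAH controls, 6.76 and 6.46 in silenced MDAH cells, -1.52 and -0.95 in SKOV3 controls, and -0.16 and 0.27 in silenced SKOV3 cells. The controls differed 234-fold (log2 difference 7.87, standard error 0.25, adjusted p = 2.51e-06), and its dimmer probe gave 197-fold (adjusted p = 2.79e-06 over probes). Within SKOV3 cells both silenced arrays were above both controls, by 2.10-fold with sh-SFPQ#2 and 2.83-fold with sh-SFPQ#3 against the control mean, but the change of 1.29 did not pass (standard error 0.25, adjusted p = 0.0780). It passed when the variance was modelled with a trend and robust weights (adjusted p = 0.0407). The dimmer probe changed by 1.32 in SKOV3 cells (adjusted p = 0.0568 over probes). In MDAH cells the arrays overlapped and the change was -0.03 (95% interval -0.63 to 0.57). The difference of these changes, -1.32 with 95% interval -2.17 to -0.47, had adjusted p = 0.232.

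Epiregulin (EREG), which binds EGFR and ERBB4, was dim. It read -3.33 and -4.06 in MDAH controls and -3.36 and -4.16 in silenced MDAH cells, and the sh-SFPQ#3 array was not well above background. On the 4 SKOV3 arrays it was never well above background. The controls of MDAH cells were therefore at least 1.22-fold higher, and EREG entered the test only through these controls. The fitted difference was 4.63-fold (adjusted p = 0.00134 from limma, and 0.0598 with the methods' t-test). It sets these controls against SKOV3 readings that were not well above background, so these p-values do not test the bound. A change on silencing was measured only in MDAH cells, at -0.06 (95% interval -0.84 to 0.72, adjusted p = 0.927).

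AREG, EREG and BTC are neighbours on chromosome 4, in the order EPGN, EREG, AREG and BTC among coding genes. AREG and EREG were both higher in MDAH cells, EPGN was not well above background on any array, and BTC did not pass between the lines (log2 difference 0.55, adjusted p = 0.227). For BTC, leaving out 1 array moved this difference between 0.056 and 1.04, and it passed without SKOV3 control 2 (adjusted p = 0.0381). The windows upstream of AREG and EREG, from the same source, build and strand as that of EGFR and again 250 bases long, are shown as those of the adjacent ligand genes with a line difference. Capitals mark TATAAA in both, and in AREG also TGACGTCA and CCGCCC.
EREG, chr4:74364895-74365144: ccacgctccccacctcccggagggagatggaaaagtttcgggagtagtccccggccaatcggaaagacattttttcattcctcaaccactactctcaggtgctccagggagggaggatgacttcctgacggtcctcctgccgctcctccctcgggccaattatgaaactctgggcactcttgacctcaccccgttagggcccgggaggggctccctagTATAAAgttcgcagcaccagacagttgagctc
AREG, chr4:74444886-74445135: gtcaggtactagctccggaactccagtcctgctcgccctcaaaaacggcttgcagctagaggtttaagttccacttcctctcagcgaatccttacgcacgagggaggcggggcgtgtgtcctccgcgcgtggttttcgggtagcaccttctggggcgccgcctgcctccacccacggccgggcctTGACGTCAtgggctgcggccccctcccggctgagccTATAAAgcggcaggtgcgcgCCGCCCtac
TATAAA began 32 bases before the start in EREG and 29 bases before it in AREG. TGACGTCA began 65 bases before the AREG start and was not in the EREG window, and CCGCCC began 9 bases before the AREG start. These matches are descriptions of the sequence, and no binding was measured.

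HBEGF, TGFA and BTC encode further ligands of EGFR. HBEGF read 0.71 and 1.42 in MDAH controls and 1.90 and 2.03 in silenced MDAH cells, and -0.43 and 0.37 in SKOV3 controls and 0.57 and 0.12 in silenced SKOV3 cells. The silenced arrays were above both controls in MDAH cells and overlapped with them in SKOV3 cells. The changes were 0.90 in MDAH cells (95% interval 0.08 to 1.72, adjusted p = 0.188) and 0.38 in SKOV3 cells (standard error 0.35, adjusted p = 0.572). HBEGF was 2.13-fold higher in MDAH than in SKOV3 controls (log2 difference 1.09, standard error 0.35, adjusted p = 0.0314). This call was lost without MDAH control 2 (adjusted p = 0.174), without SKOV3 control 1 (adjusted p = 0.167), with the methods' t-test (adjusted p = 0.232) and with arrays centred on their median (adjusted p = 0.0597).

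TGFA, the gene of TGF-alpha, was nearly level over the arrays with its brighter probe. It lay between -0.11 and 0.01 in MDAH controls, between -0.09 and 0.15 in silenced MDAH cells, between -0.24 and -0.22 in SKOV3 controls and between 0.15 and 0.16 in silenced SKOV3 cells. The SKOV3 change was 0.39 (95% interval 0.03 to 0.74, adjusted p = 0.224), and the controls of the lines differed by 0.19 (adjusted p = 0.314). The dimmer TGFA probe gave another picture: MDAH controls had a mean of -4.36 ± 0.14 and SKOV3 controls one of -2.45 ± 0.63 (SD of 2 arrays), so that MDAH was 3.76-fold lower there (adjusted p = 0.00705 over probes). Both probes list the same accession, and no line difference is given for TGFA as a gene. BTC, the gene of betacellulin, read -1.64 and -1.95 in MDAH controls and -2.72 and -2.28 in silenced MDAH cells (change -0.71, 95% interval -1.56 to 0.14, adjusted p = 0.280). In SKOV3 cells its controls alone spanned -2.84 to -1.85 and enclosed both silenced arrays.

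Neuregulin-1 (NRG1), a ligand of ERBB3 and ERBB4, had silenced arrays on opposite sides of the controls in the lines. It read 3.24 and 3.40 in MDAH controls and 3.85 and 3.55 in silenced MDAH cells, and 1.93 and 1.72 in SKOV3 controls and 1.48 and 1.26 in silenced SKOV3 cells. Silenced arrays were above both controls in MDAH cells and below both in SKOV3 cells, yet neither change passed: 0.38 in MDAH cells (95% interval -0.05 to 0.80, adjusted p = 0.256) and -0.45 in SKOV3 cells (95% interval -0.88 to -0.03, adjusted p = 0.233). The difference of these changes was 0.83 (95% interval 0.23 to 1.43, adjusted p = 0.258). The other NRG1 probe gave 0.26 and -0.56 and the same order of groups. NRG1 was 2.82-fold higher in MDAH than in SKOV3 controls (95% interval of the log2 difference 1.07 to 1.92, adjusted p = 0.000513).

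**Figure D3:**
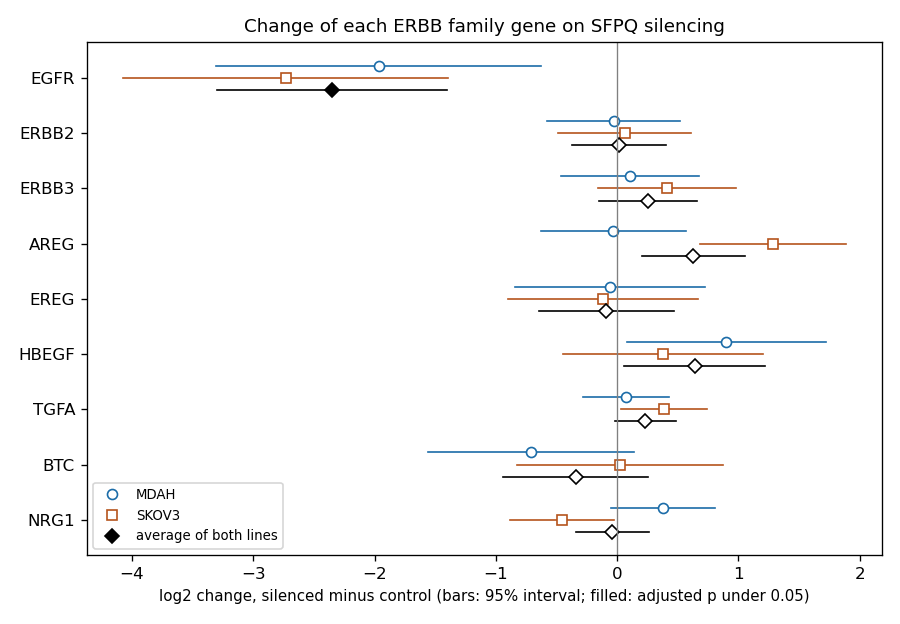
Change of each of the 9 genes on silencing (x axis, log2, silenced minus control) in MDAH cells, in SKOV3 cells and averaged over both lines, with 95% intervals from limma; filled symbols passed an adjusted p of 0.05. EGFR was the only filled symbol, at -2.35 on the average, and the points of the 2 lines lay on opposite sides of 0 for AREG, BTC, ERBB2 and NRG1.

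Over the whole receptor system, 0 of 9 genes passed on silencing in MDAH cells, where 2.03% of 15552 genes did, and 0 of 9 in SKOV3 cells, where 0.997% did. At an unadjusted p under 0.05 from limma these counts were 2 (MDAH) and 4 (SKOV3), against 23.1% and 19.5% of all genes, and with the methods' t-test 1 and 1, against 12.6% and 11.3%. On the average of both lines 1 of 9 passed, EGFR, with 5.66% of all genes. None passed for the difference between the lines, where 0.0965% of all genes did and 2 members had an unadjusted p under 0.05 (limma), as had 14.9% of all genes. Silenced and control arrays did not overlap for 4 of the 9 genes (MDAH) and for 5 (SKOV3), and for 57.0% and 57.9% of all genes, so that these shares were near the background. Among the members the median change was -0.03 for MDAH and 0.06 for SKOV3, beside 0.10 and -0.04 over all genes.

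Between the unsilenced lines 6 of 9 genes passed, where 57.5% of all genes did: AREG, ERBB3, EREG, HBEGF and NRG1 were higher in MDAH cells and ERBB2 was lower. The call of EREG rests on SKOV3 readings that were not well above background. EGFR did not pass (log2 difference 0.88, 95% interval -0.46 to 2.22, adjusted p = 0.222) when all 4 groups shared 1 spread, although its controls were only 0.11 and 0.05 apart in MDAH and SKOV3 cells. It passed when only the control arrays were fitted (adjusted p = 0.00312), with the methods' t-test (adjusted p = 0.0263), with normexp (adjusted p = 0.0475) or when either silenced SKOV3 array was left out (adjusted p = 0.0433 in each case). Control arrays of the 2 lines did not overlap for 8 of the 9 genes, and for 85.2% of all genes.

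**Figure D4:**
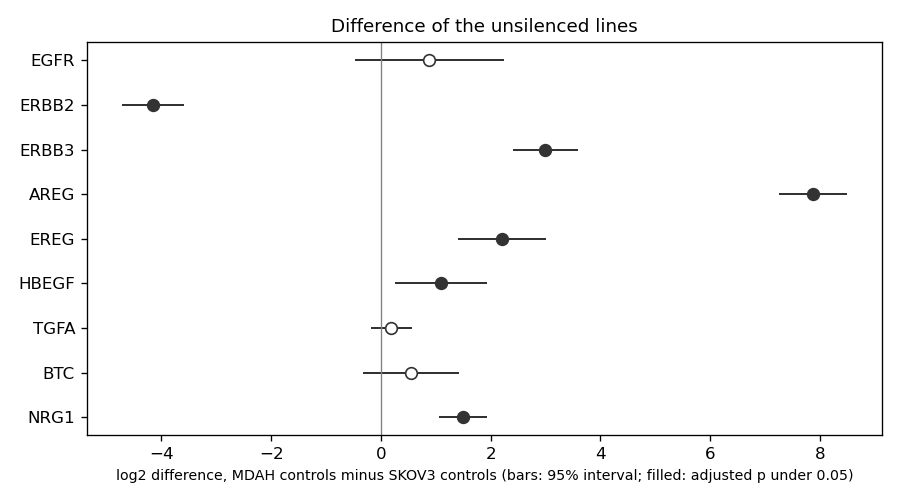
Difference of each of the 9 genes between unsilenced lines (x axis, log2, MDAH controls minus SKOV3 controls; bars are 95% intervals from limma, filled symbols passed an adjusted p of 0.05). AREG stood at 7.87 and ERBB2 at -4.15, and the point for EREG, which was not well above background in SKOV3 cells, is the fitted value and not the bound of 1.22-fold.

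The other genes of the family were mostly dim. EGF, EPGN and NRG4, all ligands, were not well above background on any array, and NRG3 was above it only in MDAH controls, so that 3 of these 6 genes were tested. ERBB4, the remaining receptor, is named here after its values were seen. It read 1.14 and 0.88 in MDAH controls, -1.91 for sh-SFPQ#2 and -4.92 for sh-SFPQ#3, and 0.80 and -1.32 in SKOV3 controls, -2.20 for sh-SFPQ#2 and -5.42 for sh-SFPQ#3, with neither sh-SFPQ#3 array well above background. The silenced arrays were below both controls in each line, but the average of -3.98 had a standard error of 0.95 and did not pass (adjusted p = 0.0608). This average includes the sh-SFPQ#3 readings that were not well above background. A further ERBB4 probe was not well above background on any array and showed no fall. NRG2, a neuregulin, was below its controls on every silenced array (average change -1.29, standard error 0.35, adjusted p = 0.0781). On the SKOV3 sh-SFPQ#3 array, where it was lowest, it was not well above background.

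Further along the pathway, 7 lists with 106 genes were examined, of which 100 were tested. On silencing, 6 of these genes passed on the average of both lines, all higher, while 5.66% of all genes passed in either direction, 2.02% as higher and 3.64% as lower, so that the share called was near the background. They were the feedback inhibitors SPRY4 and SPRY2, which damp RAS-MAPK signalling, the ETS transcription factors ETV4 and ETV5, which are induced by it, and RHBDF1 and RHBDF2, inactive rhomboids that guide the ligand-shedding protease ADAM17. The median change over the 100 genes was 0.10, beside 0.04 over all genes.

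SPRY4 had the largest rise among them. It read -2.48 and -2.17 in MDAH controls and -0.88 and -0.75 in silenced MDAH cells, and -2.87 and -2.36 in SKOV3 controls and -0.73 and -1.07 in silenced SKOV3 cells. It rose by 1.61 on the average (standard error 0.16, adjusted p = 0.00798) and passed in both lines, by 1.51 in MDAH cells (adjusted p = 0.0319) and 1.71 in SKOV3 cells (adjusted p = 0.0378). SPRY2 rose by 0.66 on the average (standard error 0.12, adjusted p = 0.0305).

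ETV4 read -2.14 and -1.62 in MDAH controls and -0.34 and 0.04 in silenced MDAH cells, and -2.25 and -1.53 in SKOV3 controls and -0.82 and -0.80 in silenced SKOV3 cells. It rose by 1.40 on the average (standard error 0.21, adjusted p = 0.0216), and ETV5 by 0.89 (standard error 0.12, adjusted p = 0.0185). In MDAH cells, where 2.03% of all genes passed in either direction and 0.418% as higher, 4 of the 100 genes passed, all higher: ETV4 (1.73, adjusted p = 0.0442), ETV5 (1.42, adjusted p = 0.0181), SPRY4 and CBLC, a ubiquitin ligase of receptor tyrosine kinases (0.91, adjusted p = 0.0340). In SKOV3 cells, where 0.997% of all genes passed in either direction and 0.424% as higher, SPRY4 alone of the 100 did, and the change of ETV5 there was 0.36 (adjusted p = 0.325). No gene of the lists passed for a difference between the lines (limma; 16 of the 100 had an unadjusted p under 0.05, beside 14.9% of all genes). RHBDF2 read 4.42 and 4.60 in MDAH controls, 4.91 and 5.28 in silenced MDAH cells, 1.51 and 1.42 in SKOV3 controls and 2.40 and 3.25 in silenced SKOV3 cells (average 0.97, standard error 0.21, adjusted p = 0.0463), and RHBDF1 rose by 0.54 (standard error 0.10, adjusted p = 0.0371).

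Several of these calls depended on single arrays. Without MDAH control 1 none of the 6 passed on the average, with SPRY4 nearest at adjusted p = 0.0712, and over all genes only 32 passed there in place of 880. SPRY4 passed in 17 of 18 alternatives, ETV5 in 14, ETV4 in 13, SPRY2 and RHBDF1 in 11 each and RHBDF2 in 9. Within MDAH cells ETV5 passed in 15 of 20, SPRY4 in 13 of 20, ETV4 in 12 of 20 and CBLC in 9 of 19, and within SKOV3 cells SPRY4 passed in 11 of 20, with adjusted p of up to 0.43.

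**Figure D5:**
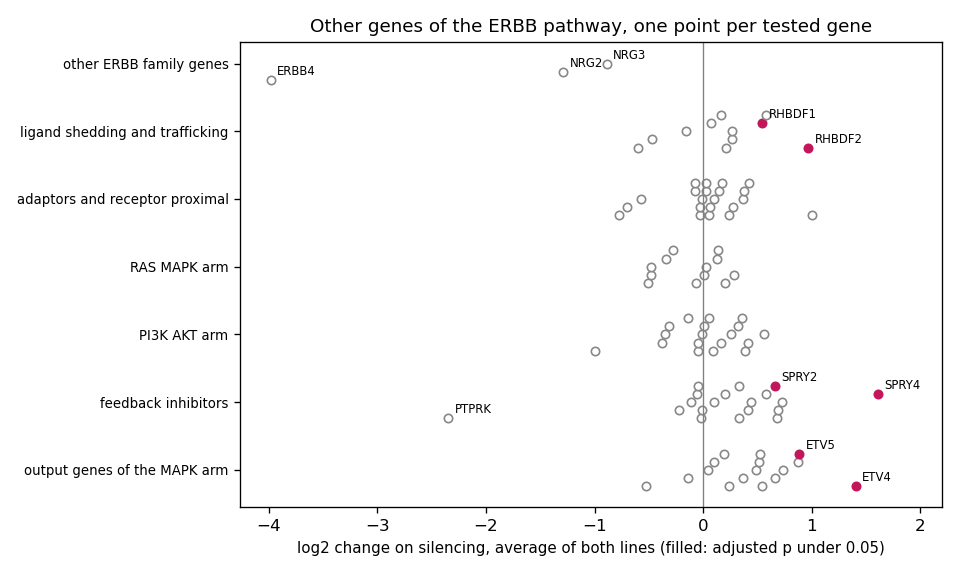
Change on silencing of the 100 tested pathway genes, averaged over both lines (x axis, log2; 1 point per gene, grouped by list; vertical offsets within a list carry no value; filled points passed an adjusted p of 0.05). The 6 filled points, SPRY4, ETV4, RHBDF2, ETV5, SPRY2 and RHBDF1, were all on the higher side, and the open points farthest to the left were ERBB4 at -3.98 and the phosphatase gene PTPRK at -2.35 (adjusted p = 0.0534).

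The unsilenced lines differed along the pathway as well: 63 of the 100 genes passed, 18 higher and 45 lower in MDAH cells, beside 26.8% and 30.7% of all genes. In the RAS-MAPK arm 7 of 12 genes were lower in MDAH controls, among them HRAS (log2 difference -1.49, adjusted p = 0.000933), and BRAF was higher (0.95, adjusted p = 0.00216). In the list for the PI3K-AKT arm 9 of 18 genes were lower, led by STAT5B (-2.19, adjusted p = 0.00019), and STAT5A was higher (3.08, adjusted p = 0.000171). Both encode STAT transcription factors, which the list held beside genes of that arm, so the count is not of that arm alone. Among output genes of the MAPK arm, JUN was lower (-3.47, adjusted p = 0.000181) and ETV1 higher (2.78, adjusted p = 0.000905), with 6 genes in each direction. Of the genes for ligand shedding 3 were higher and 5 lower in MDAH controls. ADAM17, the main protease that frees AREG and TGF-alpha, was 2.69-fold higher (adjusted p = 0.00037) and RHBDF2 8.25-fold higher (adjusted p = 0.000197).

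The genes most alike to each member over the 8 arrays were sought among 12375 other genes well above background on every array, by Pearson's r, as a description that rests largely on the line difference where a member had one. For EGFR they were TBC1D22A (r = 0.9955) and CHCHD3 (r = 0.9877), for ERBB2 ZSCAN31 (0.9992) and CHST3 (0.9983), and for ERBB3 LMTK3 (0.9974) and CD164L2 (0.9972). For AREG they were SYNE4 and SCLY (both 0.9983), for NRG1 GLOD4 (0.9964) and PUM3 (0.9952), and for HBEGF SPNS1 (0.9883) and RNF31 (0.9854). Likeness was lower for TGFA, with TCIRG1 (0.9662) and AFG3L1P (0.9575), and lowest for BTC, with NEK1 (0.8787) and GLB1 (0.8643). EREG was left out, since it was not well above background on all arrays.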

How the data were processed

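The authors labelled RNA with Cy3, hybridized it to Agilent arrays and, per the file headers, deposited each spot's intensity after background subtraction by Feature Extraction 11.5.1.1 (10.7.3.1 in the labels), not normalized between arrays. The authors also deposited a log2 table, found here to hold quantile-normalized values centred on each probe's median. Their median pixel intensities served the normexp alternative (offset 50), which was followed by quantile normalization. After removal of outlier spots, the log2 values of a probe's spots were averaged, less the array's 75th percentile. Of 30878 probes with a RefSeq accession 28174 were named. A gene entered with its brightest probe by mean log2 level, if both arrays of a group were well above background. All 4 groups were fitted together with limma 3.58.1 in R 4.3.3 (4 residual and 2.69 prior degrees of freedom), with Benjamini-Hochberg adjustment over 15552 genes and a threshold of 0.05. The fit was tested on simulated data. The number of arrays limits the precision. Members and lists were chosen with earlier results of these data known. The rule for named genes took all members, pathway genes past the threshold (at most 3 per list and comparison by size) and the 2 genes most alike to each member. Alternatives were other scalings, filters, probe choices, tests, a replicate block and leaving out each array. One gene of the pathway lists that the rule took is not reported here.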

Additional observations from a re-analysis of the deposited data

Results flagged for a closer look

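NRG1 was picked out because every silenced MDAH array lay above, and every silenced SKOV3 array below, both controls of its line. The change in MDAH cells minus that in SKOV3 cells was 0.83 on the log2 scale, and the test of this difference did not pass (adjusted p = 0.258 from limma).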

How the results depend on the processing

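Of the log2 values of single members under the alternatives, 784 kept their direction and their side of the threshold, 48 changed sign, 16 newly passed and 11 no longer passed. EGFR kept a fall of 2.02 to 2.36 averaged over both lines under the other scalings, filters, probe choices and tests, and AREG, ERBB2, ERBB3 and NRG1 passed between the unsilenced lines under every alternative run, ERBB3 at 0.77 with the mean of its probes. The number of members called differed in these cases. In MDAH cells it was 1 in place of 0, EGFR, with normexp. It also moved with some single arrays left out, where the EGFR change lay between -2.40 and -1.53. In SKOV3 cells it was 1 in place of 0 with normexp (EGFR) and with trend and robust variances (AREG). There too it moved with a single array left out, where the EGFR change lay between -3.63 and -1.83. On the average it was 0 in place of 1 without a filter on dim probes and 0 to 1 with each array left out. Between the unsilenced lines it was 5 to 7 in place of 6, both under the other alternatives and with each array left out. The cause was not tested. With the replicate block, in which control number and shRNA number were covariates shared by the lines, 1 member passed in MDAH cells and 1 in SKOV3 cells (EGFR in both, adjusted p = 0.0255 and 0.0157) and 2 passed on the average (EGFR and HBEGF, adjusted p = 0.00519 and 0.0497), and EGFR also passed between the unsilenced lines (adjusted p = 0.0326). The shRNA numbers name the same reagents in both lines, whereas the control numbers were not taken as pairs, and with 2 lines no pairing was assumed: deviations of same-numbered arrays of the lines correlated across genes at 0.0777 for controls and 0.363 for shRNAs.

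Changes near 0 reversed. With arrays centred on their median, AREG (0.0806), ERBB2 (0.0832) and EREG (0.0504) in MDAH cells, BTC in SKOV3 cells (-0.009), NRG1 on the average (0.0004) and the line difference in the change of ERBB2 (0.0555) did so. With normexp BTC (-0.0171) and EREG (0.045) in SKOV3 cells and EREG on the average (0.0223) and in the line difference (-0.0454) did so, and with quantile normalization and the authors' table EREG in MDAH cells (0.0058 and 0.0059). With the mean of a gene's probes TGFA reversed in MDAH cells (-0.46), on the average (-0.18) and between the unsilenced lines (-0.86, adjusted p = 0.0122), as did the line differences in the change of EGFR (-0.0878) and ERBB3 (0.26). With each array left out in turn, values that crossed 0 spanned, in MDAH cells, -0.18 to 0.12 for AREG, -0.24 to 0.19 for ERBB2, -0.0689 to 0.28 for ERBB3, -0.46 to 0.34 for EREG and -0.0419 to 0.19 for TGFA. In SKOV3 cells they spanned -0.47 to 0.52 for BTC, -0.16 to 0.29 for ERBB2 and -0.0218 to 0.78 for HBEGF. On the average they spanned -0.10 to 0.13 for ERBB2, -0.29 to 0.11 for EREG and -0.11 to 0.0347 for NRG1, and for the line difference in change -0.13 to 1.67 for EGFR, -0.31 to 0.13 for ERBB2 and -0.34 to 0.45 for EREG.

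Over all genes, calls in MDAH cells, 316 here (65 higher), were 268 (100 higher) with median centring, 114 with genes well above background on every array, 143 with only the 4 arrays compared, 622 with normexp and 862 with the replicate block. In SKOV3 cells, 155 calls became 39 without a filter, 0 with only the 4 arrays compared (2765 at an unadjusted p under 0.05), 241 with trend and robust variances, 322 with normexp and 688 with the replicate block. On the average, 880 calls (314 higher) were 805 (423 higher) with median centring, 370 without a filter, 1354 with trend and robust variances, 1435 with normexp and 1770 with the replicate block. The methods' t-test gave no call within a line after adjustment (1961 and 1758 genes at an unadjusted p under 0.05 in MDAH and SKOV3 cells). Leaving out each array gave 9 to 1091 calls in MDAH cells, 13 to 595 in SKOV3 cells and 32 to 1686 on the average. The median change of all genes became 0.21 in place of 0.10 in MDAH cells and -0.21 in place of -0.05 between the unsilenced lines with median centring.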
